A study of Mus musculus with 12 samples.

Results

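The genes for the 3 fibrinogen chains (Fga, Fgb, Fgg) and for 7 coagulation factors that the liver secretes into plasma (F2, F5, F7, F10, F11, F12 and F13b) were examined for acetylation of histone H3 at lysine 9 (H3K9ac) in mouse liver. These 10 genes of 21911 protein-coding genes were taken by name, and every H3K9ac peak that overlapped the gene body or the 5 kb on either side of the gene start was counted as theirs. The series held 12 adult liver samples, 6 H3K9ac chromatin immunoprecipitation (ChIP-seq) libraries and 6 inputs, which are not used here. The H3K9ac libraries were 2 of strain C57BL/6J (B6), 2 of strain MSM/Ms (MSM), 1 of an F1 hybrid whose mother was B6 and whose father was MSM (F1 BM) and 1 of the reciprocal hybrid (F1 MB). No group carried a transgene, deletion or treatment according to the labels, and the 2 libraries of each parental strain came from 2 individuals. The reference genome is that of B6, and the inbred MSM strain belongs to another mouse subspecies. Whole liver was used, so that fewer cells of a type and less acetylation per cell cannot be told apart, and each F1 cross had 1 library and therefore no replicate error. The question of the design was whether acetylated regions differ between the strains and what the hybrids carry.

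Fibrinogen is a soluble plasma protein built from the Aα, Bβ and γ chains, which are encoded by Fga, Fgb and Fgg, and thrombin turns it into the fibrin of a clot. Thrombin comes from prothrombin, the product of F2, by the action of activated factor X on a surface where activated factor V is the cofactor. Factor X in turn is activated through factor VII together with tissue factor, or through the contact pathway that runs from factor XII to factor XI, and factor XIII then cross-links the fibrin. Hepatocytes make nearly all of these proteins, and the 3 fibrinogen genes form a cluster that is a classical target of the acute phase response to inflammation. H3K9ac is found around the starts of active genes and at active enhancers.

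The 6 peak lists differed in length more within B6 than between the strains, with 22968 peaks in B6 replicate 1 and 11619 in B6 replicate 2, while the 2 MSM libraries and the 2 F1 libraries held between 13235 and 20173. A start peak, that is a peak within 1 kb of the gene start, was present at 8 of the 9 matched hepatocyte marker genes in every library, the exception being Hnf4a at the start used here. It was absent in all 6 libraries from all 6 Kupffer cell genes, all 4 megakaryocyte and platelet genes and all 6 genes not expected in liver. The endothelial list had start peaks at 0 to 4 of its 5 genes, the stellate list at 0 to 1 of 5 and the cholangiocyte list at 0 to 1 of 4, with most of these in B6 replicate 1, MSM replicate 2 and F1 BM.

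All 10 genes had a start peak in all 6 libraries, against 5166 of the 21911 genes (23.6%), and 45.8% of all genes had one in at least 1 library. The height of a peak was the fold enrichment at its summit, a linear ratio in the deposited lists that is not scaled by gene length, and the highest fold among the peaks that overlap the 1 kb on either side of the start is called start fold here. The summit of such a peak can lie further away, and it lay beyond 1 kb in 4 of the 6 libraries at Fgg, in 3 at Fgb and in none at the other genes. The median start fold of the 10 genes was 12.6 in B6 replicate 1, 6.37 in B6 replicate 2, 8.73 in MSM replicate 1, 10.4 in MSM replicate 2, 7.85 for F1 BM and 7.39 for F1 MB. The medians over all genes with a start peak were lower in each of these libraries, at 7.17, 5.05, 5.86, 5.91, 3.84 and 5.17 in the same order. Because the lists differ in scale, each start fold was also placed as a percentile among all genes with a start peak in that library. The median percentile of the 10 genes lay between 75.2 (B6 replicate 2) and 94.8 (F1 BM).

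By mean start fold over the 6 libraries the order was F10 (14.0), F2 (12.5), F5 (11.4), Fgg (9.03), Fga (8.81), F12 (8.78), F11 (8.54), F13b (6.49), F7 (6.00) and Fgb (5.64). The ranges over the libraries of every 2 neighbours in this order overlapped, so that no step between neighbours exceeded the spread. The ends of the order were apart, since the lowest start fold of F10 (8.66) lay above the highest of Fgb (8.20). Fgb, for the fibrinogen Bβ chain, had the lowest mean, but within single libraries it was the lowest in MSM replicate 1 only, with F13b the lowest in B6 replicate 1 and F7 in the other 4.

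**Figure D1:**
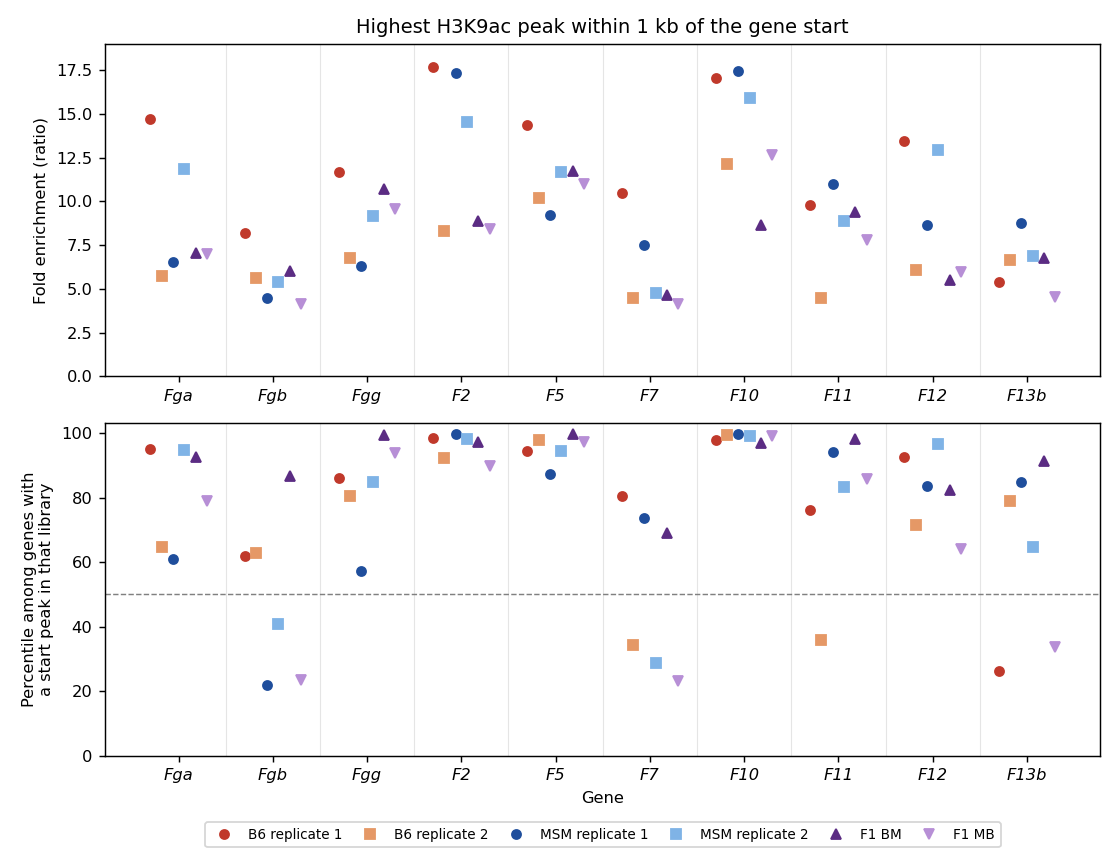
Start fold of each gene (upper panel, linear ratio) and its percentile among all genes with a start peak in the same library (lower panel, dashed line at 50), with 1 point per library and no error bars. F10, F2 and F5 stay at or above a percentile of 87.3 in all 6 libraries, whereas Fgb, F7, F11 and F13b each fall below 50 in at least 1 library.

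Among the fibrinogen genes, Fgg (chr3:83007724-83015049, plus strand, ENSMUSG00000033860.13), Fga (chr3:83026076-83033627, plus strand, ENSMUSG00000028001.16) and Fgb (chr3:83040141-83049863, minus strand, ENSMUSG00000033831.5) lie side by side in GRCm38 (mm10), with 18352 bp between the starts of Fgg and Fga and 23787 bp between those of Fga and Fgb. The start fold of Fga was 14.7 and 5.71 in the B6 livers (replicates 1 and 2), 6.53 and 11.8 in the MSM livers (likewise), 7.03 for F1 BM and 7.01 for F1 MB. That of Fgb was 8.20 and 5.61 in B6, 4.48 and 5.38 in MSM, 6.05 for F1 BM and 4.14 for F1 MB. That of Fgg was 11.7 and 6.75 in B6, 6.29 and 9.15 in MSM, 10.7 for F1 BM and 9.56 for F1 MB. For Fga and Fgg the strains overlapped, with B6 replicate 1 highest, whereas for Fgb both B6 libraries lay above both MSM libraries. Fgg had the highest mean covered length of the 10 genes, 4185 bp, with 2870 to 5971 bp of its window, or 23.3% to 48.4%, under peaks in the 6 libraries. The highest peaks of the trio in the parental libraries lay inside the genes, downstream of the start. No peak covered the start base of Fga, Fgb or Fgg in any of the 6 libraries, as held for 43.8% of the 5166 genes with a start peak in all 6. At Fga no library had any covered base in the 2 kb upstream of the start.

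The sequences just upstream of the 3 fibrinogen starts are shown because the start bases they lead to were free of peaks in all 6 libraries. They are read 5′ to 3′ on the strand of the gene from RefSeq, build GRCm38.p6, and end at the base before the gene start, at chr3:83025903-83026075 (Fga), chr3:83049864-83050113 (Fgb) and chr3:83007474-83007723 (Fgg). The Fga stretch is shorter because the GENCODE start lies upstream of the RefSeq start. Capitals mark matches to a C/EBP motif (TTGCNNAA), a STAT motif (TTCNNNGAA) and an HNF1 hexamer (GTTAAT), searched on both strands.
Fga: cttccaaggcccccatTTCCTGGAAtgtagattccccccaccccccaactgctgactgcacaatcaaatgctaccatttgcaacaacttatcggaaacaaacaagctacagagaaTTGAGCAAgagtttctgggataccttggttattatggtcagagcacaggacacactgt
Fgb: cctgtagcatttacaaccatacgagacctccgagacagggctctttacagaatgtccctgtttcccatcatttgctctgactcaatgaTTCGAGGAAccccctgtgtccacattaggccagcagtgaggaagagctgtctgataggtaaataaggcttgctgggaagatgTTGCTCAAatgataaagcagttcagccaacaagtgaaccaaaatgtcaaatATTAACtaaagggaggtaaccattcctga
Fgg: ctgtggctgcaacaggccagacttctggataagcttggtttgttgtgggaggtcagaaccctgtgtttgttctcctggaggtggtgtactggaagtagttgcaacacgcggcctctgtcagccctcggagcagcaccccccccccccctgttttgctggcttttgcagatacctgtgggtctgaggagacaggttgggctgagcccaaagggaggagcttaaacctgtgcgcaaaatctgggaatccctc

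The C/EBP and STAT letters occurred in both Fga and Fgb. In Fgb the STAT match lay at -162 to -154, the C/EBP match at -80 to -73 and the HNF1 hexamer at -29 to -24 from the RefSeq start. In Fga the STAT match lay at -234 to -226 and the C/EBP match at -135 to -128, and an HNF1 hexamer at -43 to -38 lay beyond the end of the stretch shown. No such match was found in the Fgg promoter, which held 1 match to the HNF4 core letters (CAAAG) at -45 to -41. Promoters of 250 bases before to 50 after the RefSeq start were found for all 10 genes, and over these the HNF1 hexamer occurred in 4 genes (Fga, Fgb, F2, F13b), the C/EBP letters in 3 (Fga, Fgb, F11), the STAT letters in 2 (Fga, Fgb) and the HNF4 core in 7. The shares over 32851 promoters were 7.1%, 10.8%, 8.3% and 53.9% in that order, and over the promoters of genes with a start peak in all 6 libraries 4.99%, 8.73%, 6.75% and 46.3%. The full HNF1 palindrome, a longer HNF4 motif (CAAAGTCCA) and the TATA letters (TATAAA) were in none of the 10. The HNF1 hexamer is part of its palindrome and the HNF4 core part of the longer motif, so that these counts are not independent, and a match of letters is not a bound site.

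The promoters of all 10 genes were poor in CpG, the dinucleotide that is dense at the starts of widely expressed genes. The observed number of CpG over the number expected from base composition was 0.224 at the median of the 10 promoters, from 0.161 (Fga and F5) to 0.447 (F11). The median was 0.810 over 4113 genes with a promoter entry and a start peak in all 6 libraries, of which 21.6% lay under 0.6, whereas 10 of 10 did so here. Over all 27025 genes with an entry the median was 0.389, and 63.5% lay under 0.6.

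F2, prothrombin (chr2:91625320-91636414, minus strand, ENSMUSG00000027249.15), had a start fold of 17.7 and 8.33 in B6, 17.3 and 14.5 in MSM, 8.87 for F1 BM and 8.44 for F1 MB. Its percentile was between 89.7 and 99.7. A second peak upstream of the start was present in all 6 libraries, with a fold of 10.5 and 4.11 in B6, 4.41 and 10.6 in MSM, 3.16 for F1 BM and 2.52 for F1 MB. Both peaks of F2 were found in all libraries, and the strains overlapped at both.

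F10, factor X (chr8:13037308-13056676, plus strand, ENSMUSG00000031444.16), had a start fold of 17.0 and 12.2 in B6, 17.5 and 15.9 in MSM, 8.66 for F1 BM and 12.7 for F1 MB, and its percentile never fell under 96.8. Its highest signal lay in a region 524 to 2700 bp into the gene and not at the start itself, where a separate region from -587 to 427 bp reached 11.6 and 4.40 in B6, 5.84 and 9.04 in MSM, 3.79 for F1 BM and 4.05 for F1 MB. F10 was also the only 1 of the 10 with a region at the end of the gene, at chr8:13056524-13057165, over 153 bp of the 3′ UTR and the sequence behind it. Its fold there was 7.65 and 7.02 in MSM, 3.61 in B6 replicate 1 and 2.95 in F1 BM, while B6 replicate 2 and F1 MB had no peak. The start of Proz, the next gene, which encodes protein Z, an inhibitory cofactor, lies 4237 bp beyond the end of F10.

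F5, factor V (chr1:164151838-164220277, plus strand, ENSMUSG00000026579.8), had a start fold of 14.4 and 10.2 in B6, 9.24 and 11.7 in MSM, 11.7 for F1 BM and 11.02 for F1 MB. It was the longest of the 10 genes, with 68440 bp, and had the most regions, 8, of which 5 were found in 1 parental library alone. Acetylation covered the start base of F5 in all 6 libraries. A long non-coding gene, Gm16548, overlaps its start region, and Gm30097 overlaps that of Fgg, so that signal there cannot be given to 1 of the genes.

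Of the genes that start the cascade, F7, factor VII (chr8:13026034-13035809, plus strand, ENSMUSG00000031443.7), had a start fold of 10.5 and 4.46 in B6, 7.53 and 4.78 in MSM, 4.63 for F1 BM and 4.13 for F1 MB. It lies 1498 bp from F10, and its start fold was below that of F10 in every library. F11, factor XI (chr8:45241174-45262031, minus strand, ENSMUSG00000031645.4), had a start fold of 9.78 and 4.49 in B6, 10.97 and 8.86 in MSM, 9.38 for F1 BM and 7.77 for F1 MB. F12, factor XII (chr13:55417958-55426793, minus strand, ENSMUSG00000021492.15), had a start fold of 13.5 and 6.10 in B6, 8.67 and 12.9 in MSM, 5.53 for F1 BM and 5.95 for F1 MB. The strains overlapped for F7, F11 and F12. F12 had a single region that spanned the start, and its start base was covered in all 6 libraries.

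F13b encodes the B subunit of factor XIII, which carries the catalytic A subunit in plasma. At F13b (chr1:139501702-139523752, plus strand, ENSMUSG00000026368.6) the start fold was 5.38 and 6.65 in B6, 8.79 and 6.86 in MSM, 6.76 for F1 BM and 4.51 for F1 MB. Both MSM libraries lay above both B6 libraries. F13a1, the gene for the A subunit, which is made in platelets and macrophages, had no start peak in any library.

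**Figure D2:**
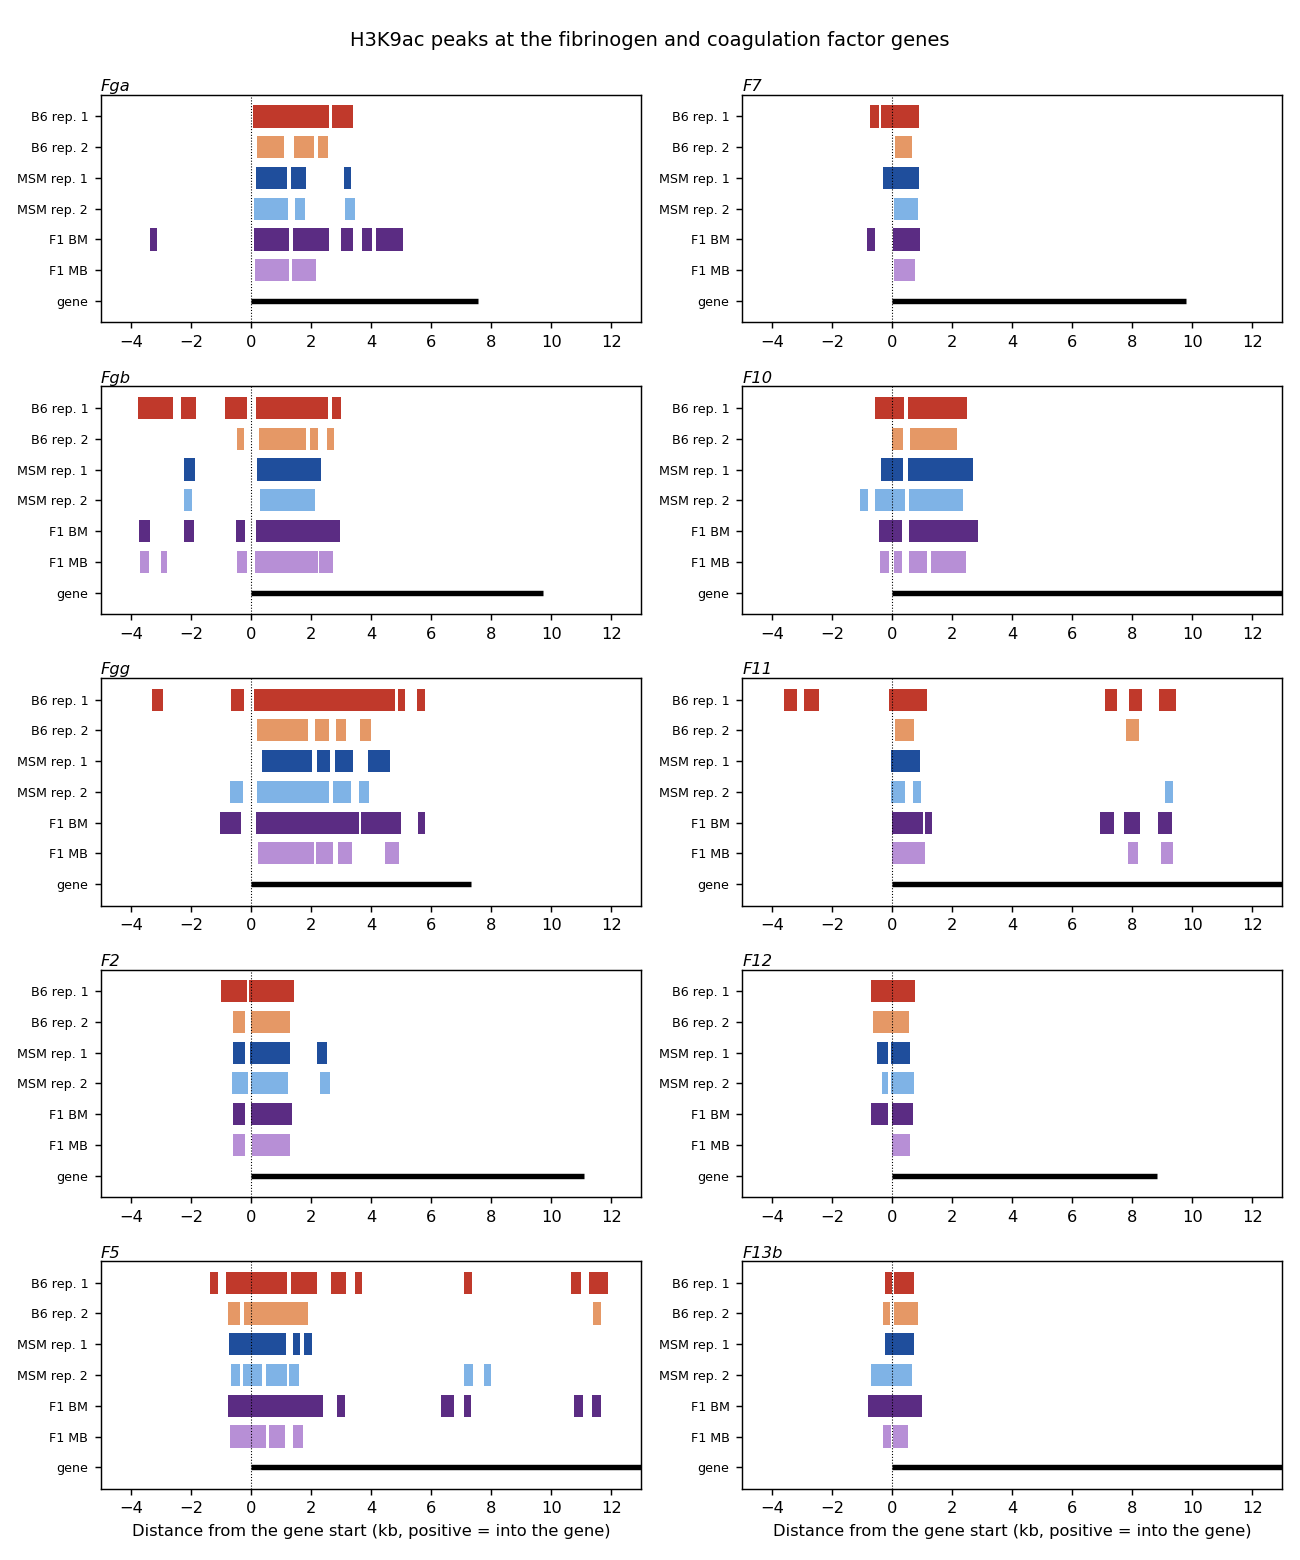
Peaks of each library (coloured bars) by distance from the gene start in kb, positive into the gene, with the gene body as a black bar that is clipped at 13 kb for the longer genes, and with the end region of F10 outside the plot. The peaks of Fga and Fgg lie mostly inside the genes, Fgb has peaks on both sides of its start, and all 3 leave the start base free in all 6 libraries, whereas F5 and F12 are covered at the start in all 6.

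The peaks of the 4 parental libraries merged into 36 regions at the 10 genes, of 25803 in the genome. Of the 36 regions, 7 spanned a start, 17 lay inside a gene, 11 lay upstream and 1 lay at a gene end. Position was judged on the merged region, and all 10 genes had a start peak in all 6 libraries, which favoured shared regions at the starts. Shares by position over all regions were not computed. All 7 that spanned a start were found in all 4 parental libraries, against 4 of 17 inside genes and 1 of 11 upstream. These 12 regions shared by the 4 parental libraries (33.3%, against 30.1% of all regions) also had a peak in both F1 libraries, as did 89.4% of all regions shared by the 4. A further 14 were found in 1 parental library (38.9%, against 35.8% of all), 12 of them in B6 replicate 1 (85.7%, against 73.2% of all regions found in 1 parental library). The start base was covered in all 6 libraries at 2 genes, F5 and F12 (11% among genes with a start peak in all 6), in 1 to 5 libraries at 5 genes and in none at the 3 fibrinogen genes.

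The height of shared regions was compared between the strains with limma on log2 fold enrichment centred on the library median, over 7777 regions with a peak in all 4 parental libraries. Of the 12 regions at the 10 genes, 0 passed an adjusted p of 0.05 (background 0.0514%, 4 regions, with 0.0257% in each direction), and 0 had an unadjusted p under 0.05, against 8.20% of all regions. Leaving out a library leaves 1 in that strain, which then has no spread of its own, so that counts by p-value are not given for those settings. The smallest adjusted p from limma among the 12 was 0.662, at the start of F11. The difference in log2 fold, MSM minus B6, ran from -0.44 ± 0.34 (SE) for Fgb to 0.60 ± 0.32 (SE) for F11, with 7 regions above and 5 below 0. Its median was 0.06, against 0.00 over all regions. The median changed sign without MSM replicate 2 (-0.13) or without B6 replicate 2 (-0.05), and it was 0.27 without B6 replicate 1 and 0.25 without MSM replicate 1. The median standard error of the 12 differences was 0.33, against 0.34 over all regions.

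**Figure D3:**
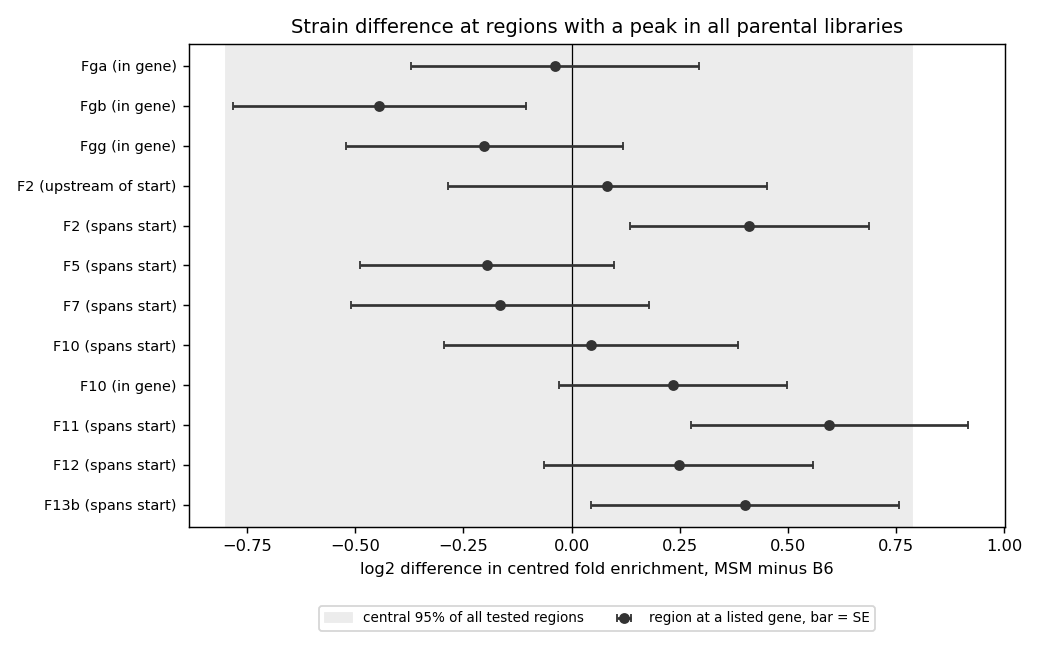
Difference in centred log2 fold enrichment, MSM minus B6, at the 12 regions with a peak in all 4 parental libraries, with the standard error of limma as bars and the central 95% of all 7777 regions in grey. The 12 values lie between -0.44 for Fgb and 0.60 for F11, all inside the grey band.

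Taken gene by gene, the start folds of the strains did not overlap at 1 gene higher in B6 (Fgb, background 11.2%) and at 1 gene higher in MSM (F13b, background 8.59%). Start fold at Fgb was 6.91 ± 1.83 for B6 and 4.93 ± 0.64 for MSM (SD of 2 libraries), and at F13b 6.01 ± 0.90 and 7.83 ± 1.36. Both differences were larger than the pooled SD (1.37 and 1.15), and the two-sided exact permutation p was 0.33 for each, the smallest value that 2 libraries against 2 can give. In all, 63 single values were compared in this way, and because of this smallest value none could pass a threshold of 0.05. On the percentile scale Fgb remained higher in B6 (61.8 and 62.8 against 22.0 and 40.7), and F5 was now higher in B6 as well (94.5 and 97.7 against 87.3 and 94.4), so that 2 genes were higher there (background 18.6%). F13b overlapped (26.2 and 79.1 in B6 against 84.9 and 64.7 in MSM), and F11 was the 1 gene higher in MSM (94.0 and 83.2 against 76.1 and 36.0, background 16.7%). With every list limited to the same covered length, Fgb and F13b no longer had a start peak in every library, and their strain differences could not be measured.

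The length under peaks was higher in both B6 than in both MSM libraries at 4 genes, Fga, F5, F11 and F12 (background 11.6% of 11446 genes with any covered base), and higher in MSM at 0 (background 4.97%). At Fga it was 3206 and 1916 bp in B6 against 1750 and 1794 bp in MSM. At F5 it was 5072 and 2832 bp against 2392 and 2511 bp. At F11 it was 3584 and 1058 bp against 968 and 945 bp, and at F12 1473 and 1171 bp against 996 and 994 bp. In each of the 4 the longer value was that of B6 replicate 1, the library with the most peaks. When every list was limited to the same number of peaks, or to the same covered length, Fga, F5, F11 and F12 were again higher in B6, together with Fgb or Fgg. The background was then 19.3% and 15.6%. With a stricter threshold Fga was no longer among them (background 11%), and when only the 5 kb around the start was counted F11 was not (12.1%). Leaving out a library also moved the shares over all genes, given here beside each count. Without B6 replicate 2 the count higher in B6 was 8 (84.2% of all genes) and that higher in MSM 1 (5.03%), and without B6 replicate 1 they were 4 (13.2%) and 4 (61.2%). Without MSM replicate 1 the count higher in MSM was 2 (10.7%).

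Over the 10 genes together, peaks covered 32339 and 17423 bp in B6, 19276 and 19655 bp in MSM, 30348 bp for F1 BM and 18766 bp for F1 MB, of 231524 bp. The strain difference was -5415.5 bp (MSM minus B6, mean 24881 ± 10547 bp for B6 and 19466 ± 268 bp for MSM, SD of 2 libraries), below the pooled SD of 7460 bp (two-sided exact permutation p = 1). Leaving out B6 replicate 1 turned it to 2042.5 bp, and leaving out B6 replicate 2 gave -12873.5 bp. With equal numbers of peaks the totals were 25285 and 17423 bp in B6 against 16756 and 16991 bp in MSM (-4480.5 bp). With equal covered length they were 18541 and 17423 bp against 16276 and 15002 bp (-2343 bp). The strains did not overlap at either setting, but did with the stricter threshold (-4833.5 bp). Divided by the Mb under peaks in each list, the totals also overlapped, and the difference of -385 was just above the pooled SD of 379. The 3 fibrinogen genes alone held 14255 and 7124 bp in B6, 7672 and 7694 bp in MSM, 13743 bp for F1 BM and 8754 bp for F1 MB, which was between 39.1% (MSM replicate 2) and 46.6% (F1 MB) of the covered length of the 10 genes.

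**Figure D4:**
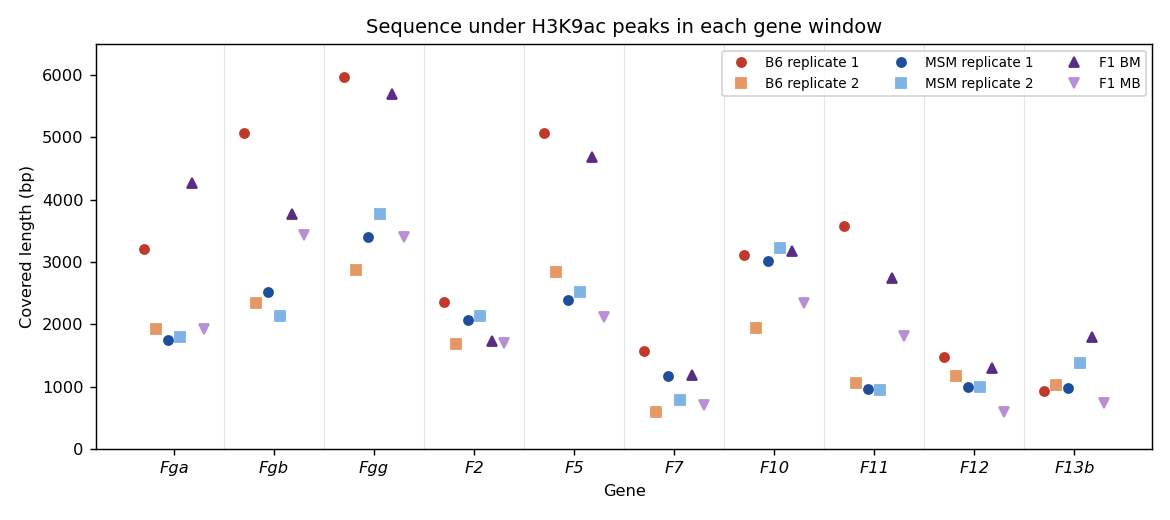
Length under H3K9ac peaks in the window of each gene (bp), with 1 point per library and no error bars. At Fga, F5, F11 and F12 both B6 points lie above both MSM points, and B6 replicate 1 and F1 BM stand highest at Fga, Fgb, Fgg, F5, F7, F11 and F12.

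The edges of the start domain, formed by joining peaks with gaps of at most 500 bp, were compared as the distance from the start. Upstream, the domain of Fgb began 864 and 473 bp before the start in B6, whereas in MSM it began inside the gene (reach of -199 and -301 bp, negative values lying downstream of the start). F1 BM and F1 MB reached 496 and 469 bp upstream. A separate region of Fgb further upstream, at -2319 to -1825 bp, had a fold of 3.34 and 4.42 in MSM. The fold there was 2.71 in B6 replicate 1 and 2.44 for F1 BM, with no peak in B6 replicate 2 or F1 MB. Fgb was the 1 gene of 10 that reached at least 200 bp further upstream in both B6 libraries (background 4.8%), and 0 did so in MSM (background 0.829%). Downstream, Fga ended at 3391 and 2580 bp in B6 against 1826 and 1791 bp in MSM, and Fgb at 3002 and 2766 bp against 2340 and 2133 bp. These 2 were the genes further downstream in B6 (background 5.65%), with 0 in MSM (background 2.16%). At Fgb the upstream difference did not hold with the stricter threshold, where it was -553 bp (MSM minus B6) and the strains overlapped, and it could not be measured with the same covered length. F12 was the 1 gene further upstream in B6 under both (background 5.01% and 5.62%). With joining within 1000 bp the Fgb difference was -2369.5 bp, against -918.5 bp with 500 bp. The downstream difference of Fgb, -647.5 bp, was 38.5 bp with the stricter threshold and 2424 bp without joining of peaks, where Fgb was the 1 gene further downstream in MSM and 0 were further in B6. In that case the peak nearest the Fgb start in B6 was the one upstream of it. At Fga the downstream difference of -1177 bp was -39.5 bp with the stricter threshold, under which F5 was the 1 gene counted. Without B6 replicate 2 the counts further in B6 were 5 upstream (26% of all genes) and 5 downstream (30.1%). Without MSM replicate 1 the upstream counts were 2 in B6 (8.4%) and 2 in MSM (2.32%), and without B6 replicate 1 the counts further in MSM were 1 upstream (15.4%) and 2 downstream (24.8%). The exact permutation p was 0.33 for each of the 3 differences named.

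Regions with a peak in both libraries of one strain and in neither of the other were found at 4 of the 10 genes. Of the 36 regions, 3 were B6-specific in this sense (background 3.29%) and 1 was MSM-specific (background 3.38%). The B6-specific regions were the upstream part of Fgb (chr3:83050008-83050727, -864 to -145 bp), an intronic region of F5 (chr1:164163101-164163717, 11263 to 11879 bp into the gene) and an intronic region of F11 (chr8:45253722-45254238, 7793 to 8309 bp into the gene). The MSM-specific region lay in an intron of F2 (chr2:91633765-91634216, 2198 to 2649 bp into the gene).

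At the upstream region of Fgb the fold was 6.21 and 3.10 in B6, 3.62 for F1 BM and 4.14 for F1 MB, so that both hybrids carried the peak. The region of F11 had 3.41 and 4.26 in B6, 3.28 for F1 BM and 3.01 for F1 MB. The region of F5 had 2.84 and 3.70 in B6 and 3.29 in F1 BM, with no peak in F1 MB. The region of F2 had 4.22 and 4.34 in MSM and no peak in either hybrid. These were low peaks, and all but those of Fgb in B6 replicate 1 and F1 BM lay under the median fold of their list. Of the 3 B6-specific regions, 2 had a peak in both hybrids. With every list limited to the same number of peaks, the B6-specific count was 1 of 19 regions (Fgb, background 6.31%), and with the same covered length it was 0 of 17 (2.93%). With the stricter threshold it was 1 of 30 (F11, background 3.19%) and the MSM-specific count was 0 (3.35%). The F2 region was MSM-specific under none of these 3 settings, and the 1 MSM-specific region with the same number of peaks or the same covered length was the end region of F10 (background 5.6% and 6.11%). Without B6 replicate 2 the B6-specific count was 16 of 38 (background 29.6%) and without B6 replicate 1 it was 5 of 29 (5.88%), while the MSM-specific count was 4 of 29 without B6 replicate 1 (22.1%) and 3 of 36 without MSM replicate 1 (8.79%).

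The stretches shared by all the libraries with a peak at these 4 regions are shown because they are where the strains differed in the presence of a peak. They are sequence of the reference strain B6, build GRCm38.p6, on the strand of the gene, at chr3:83050093-83050332 (Fgb), chr1:164163221-164163484 (F5), chr8:45253854-45254153 (F11, the central 300 bases) and chr2:91633888-91634111 (F2). Capitals mark the HNF1 hexamer (GTTAAT, or ATTAAC on the other strand). MSM sequence was not used here, so that base differences between the strains were not tested.
Fgb, B6-specific: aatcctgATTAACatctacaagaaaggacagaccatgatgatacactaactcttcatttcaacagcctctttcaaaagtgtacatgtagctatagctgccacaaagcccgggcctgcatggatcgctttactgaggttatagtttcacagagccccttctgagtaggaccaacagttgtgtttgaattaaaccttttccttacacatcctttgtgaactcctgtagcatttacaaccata
F5, B6-specific: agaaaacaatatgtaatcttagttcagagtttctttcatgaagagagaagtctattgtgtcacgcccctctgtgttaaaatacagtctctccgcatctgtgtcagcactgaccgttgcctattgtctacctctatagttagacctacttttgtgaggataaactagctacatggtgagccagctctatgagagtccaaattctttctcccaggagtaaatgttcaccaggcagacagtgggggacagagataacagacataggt
F11, B6-specific: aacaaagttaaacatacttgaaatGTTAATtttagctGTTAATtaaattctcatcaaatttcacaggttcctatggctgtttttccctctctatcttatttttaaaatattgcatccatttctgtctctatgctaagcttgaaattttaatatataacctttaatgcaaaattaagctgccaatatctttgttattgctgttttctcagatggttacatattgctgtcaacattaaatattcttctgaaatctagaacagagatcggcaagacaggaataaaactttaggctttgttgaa
F2, MSM-specific: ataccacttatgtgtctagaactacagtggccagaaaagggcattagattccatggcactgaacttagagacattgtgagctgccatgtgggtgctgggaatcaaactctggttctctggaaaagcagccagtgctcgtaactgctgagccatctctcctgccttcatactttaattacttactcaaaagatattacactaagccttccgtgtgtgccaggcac

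The Fgb and F11 stretches held the HNF1 hexamer and, unmarked, the HNF4 core letters, and the F5 and F2 stretches held none of the motifs searched. The GC content was 41.3% for Fgb, 42.8% for F5, 29.3% for F11 and 46.0% for F2.

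In the hybrids, F1 BM had 35 peaks and F1 MB 27 at the 10 genes, within the 23 to 36 of the parental libraries. The percentile of the start fold in F1 BM was above all 4 parental libraries at 5 genes (Fgb, Fgg, F5, F11 and F13b; background 18.7% of the genes with a start peak in all 6), within their range at 4 and below at 1 (F10, background 17.8%). In F1 MB it was above at 1 (Fgg, background 15.1%), within at 6 and below at 3 (F2, F7 and F12, background 24.5%). At Fgg the percentile was 99.3 for F1 BM and 93.9 for F1 MB, against 57.4 to 86.2 in the parental libraries, and it was the gene above the parental range in both hybrids. Peaks found in a hybrid and in no parental library numbered 4 of the 35 in F1 BM (background 9.86% of its list), with 3 at Fga and 1 at F5, and 0 of the 27 in F1 MB (1.34%). At Fga they lay at -3372 to -3134 bp (fold 3.07), 3701 to 4037 bp (3.52) and 4173 to 5066 bp (2.81), and the covered length of Fga in F1 BM, 4273 bp, was the highest of the 6 libraries. With 1 library per cross, these differences between the hybrids have no replicate check, and the F1 BM list held 20173 peaks against 13235 in F1 MB.

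Another 36 genes of coagulation, its inhibitors and fibrinolysis were listed for comparison. Of these, 20 had a start peak in all 6 libraries, 6 in some and 10 in none. Those without included F13a1, Vwf, Serpina5, Plat, Plau, Thbd, Procr, A2m and Lman1. Vwf encodes von Willebrand factor, Thbd thrombomodulin, Procr the protein C receptor, and Plat and Plau plasminogen activators. Lman1 lacked a peak only at the start used here. Peaks covered 3581 and 1900 bp of the Lman1 window in B6, 1684 and 1791 bp in MSM, 2486 bp for F1 BM and 1582 bp for F1 MB. Among the 20, the highest mean start fold was found at Plg, plasminogen (13.5), Proz (12.5), Serpinf2, the plasmin inhibitor (11.3), Kng1, a kininogen (9.89), and Serpina10, the protein Z-dependent inhibitor (9.48). Start fold at Plg was 11.5 and 9.22 in B6, 20.7 and 13.3 in MSM, 15.3 for F1 BM and 10.8 for F1 MB.

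Among 86 regions at these 36 genes, 7 were B6-specific at 6 genes (8.14% of the regions, against 3.29% of all) and 3 were MSM-specific at 2 genes (3.49%, against 3.38%). Of the 35 tested with limma 0 were called, with a median log2 difference of 0.09. Of these strain-specific regions, the one with the highest fold lay at Klkb1, which encodes plasma prekallikrein, the partner of factor XII in contact activation and the neighbour of F11 on chromosome 8. It had a fold of 6.78 and 5.01 in B6, no peak in MSM, 4.66 for F1 BM and 4.64 for F1 MB. At Fgl1, fibrinogen-like 1, an MSM-specific region had 6.42 and 4.90 in MSM, 4.23 in F1 BM and no peak in F1 MB. B6-specific regions at Plg (5.50 and 2.98), Pzp (4.84 and 3.07) and Serpinf2 (4.64 and 4.41) had a peak in F1 BM at the first 2 and in no hybrid at Serpinf2. Of the 27 genes with any covered base, the covered length was higher in both B6 libraries at 5 (18.5%, against 11.6% of all genes) and higher in both MSM libraries at 1 (3.70%, against 4.97%).

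The start profile most like the median of the 10 genes was sought among 5136 other genes, by the Euclidean distance of log2 start fold above the library median over the 6 libraries. It was that of Klhl24 (0.25), Aaed1 (0.29) and Txn2 (0.32). The 10 genes themselves lay at distances of 0.57 (Fga) to 1.75 (F10) from their own median, so that they did not share 1 profile, and F10 and Fgb, at 1.75 each, stood on opposite sides of it.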

How the data were processed

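H3K9ac ChIP-seq of adult liver was analysed from 6 deposited peak lists, 1 list for each library and not pooled. The authors sequenced paired reads of 50 bp, trimmed them with Trim Galore and, per their methods, mapped them with Bowtie 2 to mm10 (GRCm38). The submitters' processing notes list HISAT2, SAMtools and MACS2 without a role or version. Options of the peak caller and the use of input are not given in the sources used here. The fold enrichment (a ratio at the summit over the background of the caller) and the −log10 of the p-value and q-value of each peak were used as the authors deposited them. The score that the authors deposited equals 10 times the −log10 q cut to a whole number and was not used. All lists ended near a q-value of 0.05. They hold no read counts, so that the depth of each library is unknown and a missing peak cannot be told from one too weak to be called. Reads of MSM were mapped to B6 sequence, which can lower mapping where the strains differ.

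Gene starts and bodies came from GENCODE M21, 1 gene per symbol (the longest). Peaks were counted with an overlap of at least 1 bp, merged over the 4 parental libraries into regions and joined within 500 bp into domains. Computation used Python 3.11.15, numpy 2.4.6 and pandas 2.3.3, figures matplotlib 3.10.9, and the regional test limma 3.58.1 in R 4.3.3 (lmFit and eBayes with trend, Benjamini-Hochberg over all 7777 regions). The interval functions and the limma step were tested on simulated data. With 1 common spread for all simulated regions, limma recovered 17 of 50 planted log2 differences of -1 and 11 of 50 of 1. It recovered 50 of 50 planted differences of -2 and 49 of 50 of 2, so that differences near 1 could be missed. The centred log2 fold was computed here from the deposited ratio. Single values were compared by a two-sided exact permutation test over 6 assignments, whose smallest p is 0.33, and p-values measure only the spread between these libraries. All 10 listed genes were named. Of the other coagulation genes, the 5 with the highest mean start fold and up to 5 with a strain-specific region, largest fold first, were named, together with the 3 genes most alike in profile and the genes without a start peak, 1 of which is not reported here. F7 and F10 share part of a window, counted once in sums. The listed genes, the gene lists and the tests were chosen with earlier results of these data known. Replicate numbers are not stated to pair the libraries. Deviations of same-numbered libraries were not correlated (r = -0.014 over 7777 regions), which cannot show whether the libraries shared a batch. The alternatives were equal list lengths, a stricter threshold (−log10 q of at least 5), other windows, joining and centring, a replicate block and leaving out each parental library.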

Additional observations from a re-analysis of the deposited data

How the results depend on the processing

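The start peaks of all 10 genes were kept under every alternative except equal covered length. Under that setting Fgb and F13b lost theirs in at least 1 library, and 8 genes had one in all 6. No region at the 10 genes was called by limma under any alternative that kept 2 libraries per strain. With equal numbers of peaks there were 1 B6-specific region, 2 genes further upstream in B6 (5.67% of all genes at this setting) and 4 further downstream (7.69%). With equal covered length there were 0 B6-specific regions. With the stricter threshold 1 B6-specific region and 0 MSM-specific ones were counted, with 1 gene (F5) further downstream in B6 (5.57%). Without joining, 2 genes reached further upstream in B6 (3.55%), 0 further downstream in B6 (5.86%) and 1 (Fgb) further downstream in MSM (2.12%). The causes of these changes were not tested.

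Leaving out each parental library in turn gave 3 to 16 B6-specific regions (5.2% to 29.6% of all regions) and 1 to 4 MSM-specific ones (3.43% to 22.1%), and 4 to 8 genes with more covered length in B6 and 0 to 4 in MSM. The share of all genes with more covered length then ran from 13.2% to 84.2% in B6 and from 5.03% to 61.2% in MSM. Leaving out libraries gave 1 to 5 genes further upstream in B6 (5.36% to 26% of all genes) and 0 to 2 in MSM (1.24% to 15.4%), and 2 to 5 further downstream in B6 (6.05% to 30.1%) and 0 to 2 in MSM (2.62% to 24.8%). The covered length over the 10 genes, MSM minus B6, ran from -12873.5 to 2042.5 bp, with the opposite sign to the full data without B6 replicate 1. The median log2 difference ran from -0.13 to 0.27. With a replicate block the median log2 difference was 0.06, the smallest adjusted p among the 12 regions was 0.687 and 18 of 7777 regions were called in place of 4, while the number of called regions at the 10 genes stayed at 0. No centring, quantile normalisation, equal lists and the stricter threshold each gave 0 calls over all regions. With 2 libraries per strain, peak lists without read counts limit every strain comparison here.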

Other observations

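Kng2, a second kininogen gene beside Kng1, had the clearest contrast in presence among the 36 other coagulation genes, and it was chosen here after its values were seen. Its start fold was 10.6 and 7.88 in the B6 libraries, 9.91 for F1 BM and 9.96 for F1 MB, and neither MSM library had a start peak. A start peak in both B6 libraries and in neither MSM library was found at 185 genes, 1.86% of those with a start peak in any parental library. Kng1 and Kng2 are close copies of each other, and how reads were divided between them was not tested. Over the whole Kng2 window, start peaks included, peaks covered 408 and 538 bp in MSM, against 2658 and 1391 bp in B6.

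Pzp, which encodes a plasma proteinase inhibitor of the α2-macroglobulin family, also differed in height, with a start fold of 14.3 and 8.83 in the B6 libraries against 3.80 and 4.60 in the MSM libraries, and 10.8 for F1 BM and 8.63 for F1 MB. F9, factor IX, was the 1 gene of the 36 with more covered length in both MSM libraries (1526 and 1849 bp) than in both B6 libraries (846 and 488 bp). These 2 genes were likewise chosen after their values were seen, and no tested region at any of the 3 passed the limma test. That test compared heights at regions with a peak in all 4 parental libraries. The lack of a Kng2 start peak in MSM was therefore not tested.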
